A study of Mus musculus with 14 samples.

Results

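Of the 14 mouse embryonic stem (ES) cell lines in the series, 3 held more RNA from chromosome 6 than the other lines of the same cross, and they are described here. They were selected on measured values, among the 6 CB lines, as those whose median chromosome 6 gene level lay at least 0.2 on the log2 scale above the reference. The raised lines were CB XX 1 and 2 lines with an XY label, CB XY 2 and CB XY 3, and they are set against CB XY 1, CB XX 2 and CB XX 3. CB lines came from F1 blastocysts of a CAST/EiJ mother and a C57BL/6J father, and the 8 BC lines, used as an outside reference, came from the reciprocal cross and carried the labels XY (3 lines), XX (3 lines) or XO (2 lines). No line carried an engineered allele or a drug treatment. All were grown in serum with LIF on mouse embryonic fibroblast feeders, which were depleted before RNA was taken, and each line stands for 1 embryo. The numbers of the CB XX lines here are those of the data columns, since the submitters' line names carry other numbers. Total RNA depleted of ribosomal RNA was sequenced from each line with strand-specific libraries. Per the study's methods the lines were karyotyped by chromosome counts near the passage used, and the XX and XY lines are described as diploid in most spreads. The files hold RNA values only, and the preparation batches of the libraries are not tied to lines in the labels. P-values measure the spread between these lines.

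ES cells in culture can gain or lose whole chromosomes, and RNA of most genes on a gained chromosome is known to follow the number of copies. Mouse chromosome 6 carries the Nanog cluster with Dppa3, Gdf3 and Slc2a3, the Hoxa cluster, and the imprinted domains around Peg10 and Mest. It also carries single subunits of complexes whose other subunits lie elsewhere in the genome, such as Ezh2 of PRC2 and Mcm2 of the replicative helicase.

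Of 23298 genes in the table, 1233 were placed on chromosome 6, and 752 of these had a value of 10 or more in at least 3 of the 6 CB lines and are described. Values are scaled read signals per gene. They are not divided by gene length, so they compare lines and not genes. If the smallest step of each library is 1 read, the raised lines held 11904424 (CB XY 2), 21894857 (CB XY 3) and 21569192 (CB XX 1) reads. The other CB lines then held 14661088 (CB XY 1), 23144187 (CB XX 2) and 31997704 (CB XX 3) reads, and the BC lines 24117740 to 69646376.

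Y-linked RNA went against 2 of the labels among the raised lines. Uty, a Y-linked histone demethylase gene, had a value of 19.6 in CB XY 2 as labelled and 45.4 in CB XY 3 as labelled, against 1149 in CB XY 1 and 12.8 to 57.8 in the CB XX lines. In these lines Ddx3y, a Y-linked RNA helicase gene, had values of 27.0 and 126, against 1084 in CB XY 1. Both lines thus lay far below CB XY 1 for these genes, and for Ddx3y CB XY 2 lay below the lowest XX-labelled line (49.8). XX-labelled BC XX 3 had 1023.5 for Ddx3y. The Y-linked Eif2s3y had 2.46 and 32.5 in CB XY 2 and CB XY 3 against 76.7 in CB XY 1. Kdm5d, also Y-linked, had 4.91 and 22.1 against 22.2. The X chromosome medians described below were -0.49 in CB XY 2 and -0.15 in CB XY 3. They were -0.47 in CB XY 1 and 0.33 to 0.50 in the CB XX lines. The sex chromosomes of CB XY 2 and CB XY 3 were not tested. The median difference of chromosome 6 is also given within the CB XX lines, and the test off chromosome 6 also without these 2 lines. The other comparisons of the sides rest on these lines as well and are not given without them. The ES cell markers were present in every CB line, with a summed value over 8 genes of 115139 to 145598 in the raised lines and 118423 to 135803 in the other CB lines. The 28 feeder fibroblast markers, none of which was at 0 in any CB line, summed to 73695 to 106639 in the raised lines and 102660 to 134269 in the others. Of the 27 feeder markers off chromosome 6, 26 had lower means in the raised lines (median log2 difference -0.92), and 1 of them did not overlap between the sides, where the background off chromosome 6 was 4.97%. Fewer feeder cells and less RNA per feeder cell cannot be told apart in these bulk samples, and the part of feeder RNA in the results was not tested.

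Chromosome 6 RNA was higher as a whole in the raised lines. For each gene the log2 level was compared with the mean of the 8 BC lines, and the median over the other autosomes was subtracted within the line. The median over 752 chromosome 6 genes was 0.34 in CB XY 2, 0.30 in CB XY 3 and 0.28 in CB XX 1. It was -0.13 in CB XY 1, -0.0285 in CB XX 2 and -0.0332 in CB XX 3. Among the CB lines, none lay between -0.0285, the highest of the others, and 0.28, the lowest of the raised lines. The mean of the line medians was 0.31 ± 0.0296 (SD, n = 3) on the raised side and -0.0625 ± 0.055 (SD, n = 3) on the other side, a difference of 0.37 or 1.29-fold. These values chose the lines, so they carry no test. On the same scale a step from 2 to 3 copies would be 0.585. Within the CB XX lines the difference was 0.32 and within the lines labelled CB XY 0.45, and without the 2 lines with low Y-linked RNA the raised side is CB XX 1 alone.

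The share of signal, computed from the same chromosome 6 values, also separated the sides. Chromosome 6 took 6.44% of the autosomal signal in CB XY 2, 6.13% in CB XY 3 and 6.16% in CB XX 1. It took 4.52% in CB XY 1, 4.93% in CB XX 2 and 4.74% in CB XX 3. The means were 6.25% ± 0.174 (SD, n = 3) and 4.73% ± 0.206 (SD, n = 3), a ratio of 1.32. Without the 10 genes of highest value the raised lines still lay at 5.00% to 5.23% and the other CB lines at 3.69% to 4.05%.

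**Figure D1:**
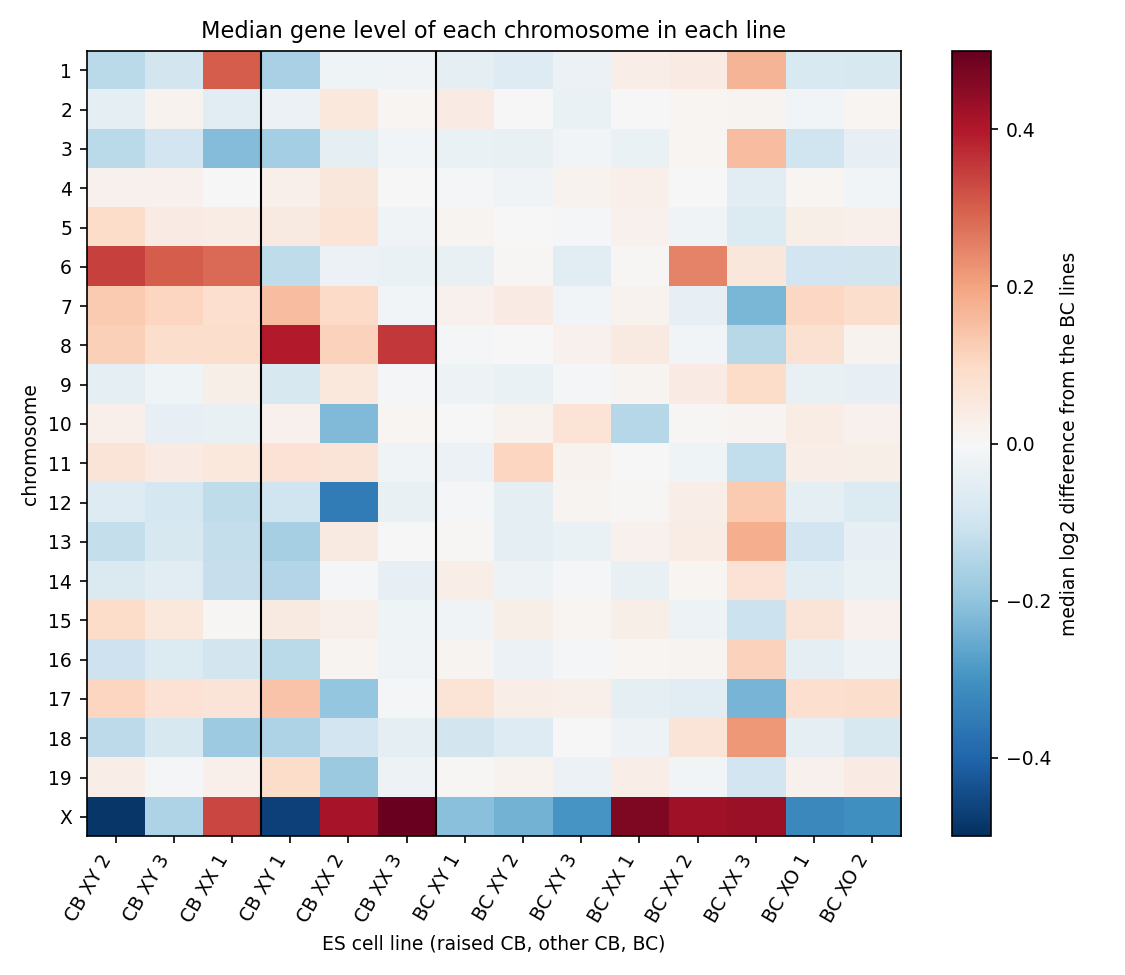
The heat map gives the median log2 difference of gene levels from the BC lines for each chromosome (rows) in each of the 14 lines (columns), with the 3 raised CB lines at the left, then the 3 other CB lines and the 8 BC lines. Chromosome 6 stands at 0.28 to 0.34 in the raised lines and at 0.25 in BC XX 2, and chromosome 8 stands at 0.40 and 0.36 in CB XY 1 and CB XX 3.

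Among the BC lines, BC XX 2 had a chromosome 6 median of 0.25, past the same threshold, while the other 7 BC lines lay between -0.096 and 0.056. Chromosome 6 took 5.85% of its autosomal signal, and 81.7% of its chromosome 6 genes lay above 0. It was not a member, since only CB lines were taken, and it is part of the reference. With BC XX 2 left out of the reference the difference between the CB sides was 0.37.

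The higher level was seen in most windows along the chromosome. In 10 Mb windows on mm9 (NCBIM37), each with 16 to 101 genes, the median over genes of the difference between the sides was above 0 in 15 of 15 windows, from 0.11 to 0.56. In 13 of the 15 windows each raised line lay above each of the other CB lines. The highest difference, 0.56, came from the window of 60 to 70 Mb, which had the fewest genes, 16. There the lines overlapped, with CB XX 1 at -0.074 and CB XX 3 at -0.032. The window from 10 to 20 Mb, with 22 genes, had the lowest difference, and there all 3 raised lines lay below 0 against the BC lines (-0.088, -0.067 and -0.26). The line medians of CB XY 1, CB XX 2 and CB XX 3 in that window were -0.33, -0.057 and -0.025, so that the lines of both sides overlapped. Foxp2, a forkhead factor gene, Cav1 and Cav2, both caveolin genes, and Thsd7a lay in that window with differences of -0.98, -1.38, -1.13 and -1.14. In the same window Capza2, an actin capping protein gene, and Phf14 had differences of 0.36 and 0.46. Line by line, 14 windows of CB XY 2, 14 of CB XY 3 and 13 of CB XX 1 lay above 0, against 2 of CB XY 1, 4 of CB XX 2 and 3 of CB XX 3. In BC XX 2 all 15 windows lay above 0, from 0.12 to 0.33.

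**Figure D2:**
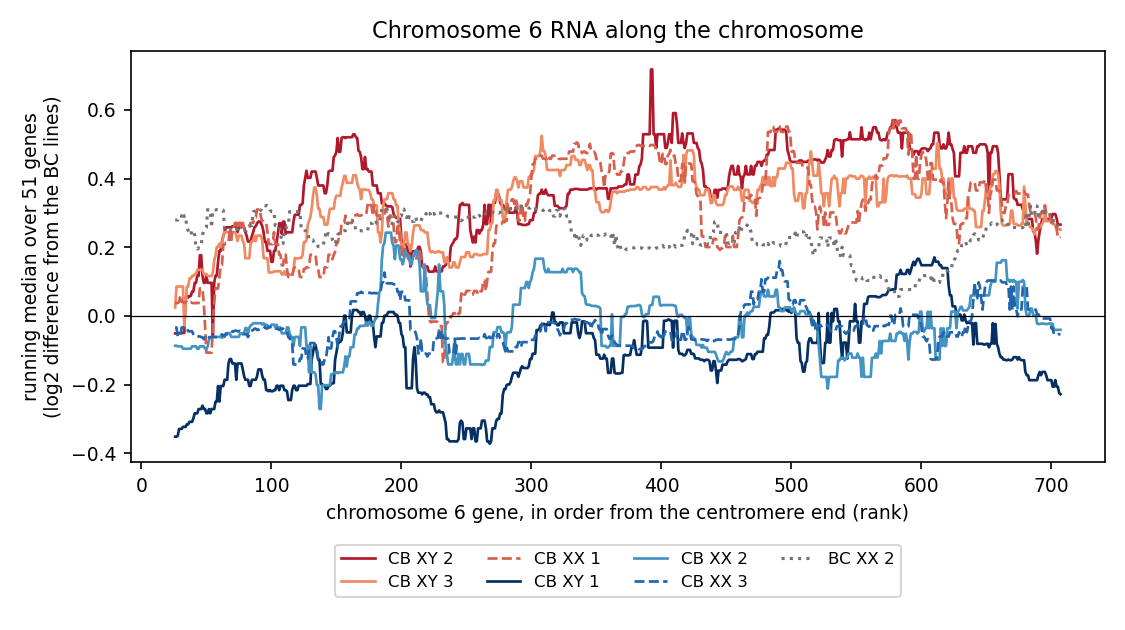
Running median over 51 neighbouring chromosome 6 genes (y axis, log2 difference from the BC lines) against gene order from the centromere end (x axis), for the 3 raised CB lines (red and orange), the 3 other CB lines (blue) and BC XX 2 (grey, dotted). The raised lines run above the other CB lines over most of the chromosome, with overlap near the centromere end and at places between gene 205 and gene 233.

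Single gene differences are given as a description. The difference of means between the raised and the other CB lines had a median of 0.39 over 752 chromosome 6 genes, with quartiles of 0.11 and 0.60, and 79.7% of them lay above 0. Over 14051 genes of the other autosomes the median was 0.0059 and 50.7% lay above 0. On chromosome 6, 303 genes (40.3%) had all 3 raised lines above all 3 other CB lines, where the background over all genes was 5.97% and off chromosome 6 was 4.2%. The opposite order held for 16 chromosome 6 genes (2.13%), where the background over all genes was 4.83%. Since chromosome 6 levels chose the lines, nothing is read from these counts. A difference above 0.585 was found for 202 chromosome 6 genes (26.9%), against 610 genes (4.34%) of the other autosomes.

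The median difference was larger in genes of higher value, on the values that chose the lines. Of 272 chromosome 6 genes with a mean value of 1000 or more, 94.9% lay above 0, the median was 0.47, and 181 (66.5%) had raised lines above all others. Of 270 genes between 100 and 1000, the median was 0.42 and 98 (36.3%) did so. Of 210 genes under 100, the median was 0.11 and 24 (11.4%) did so. On the other autosomes these shares were 4.70%, 4.19% and 4.07% from the highest class to the lowest. In the highest class 54.3% of those genes lay above 0. Since chromosome 6 levels chose the lines, these counts are a description. At a difference of 0 or less lay 153 chromosome 6 genes, of which 89 had a mean value under 100 and 14 a mean value of 1000 or more.

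**Figure D3:**
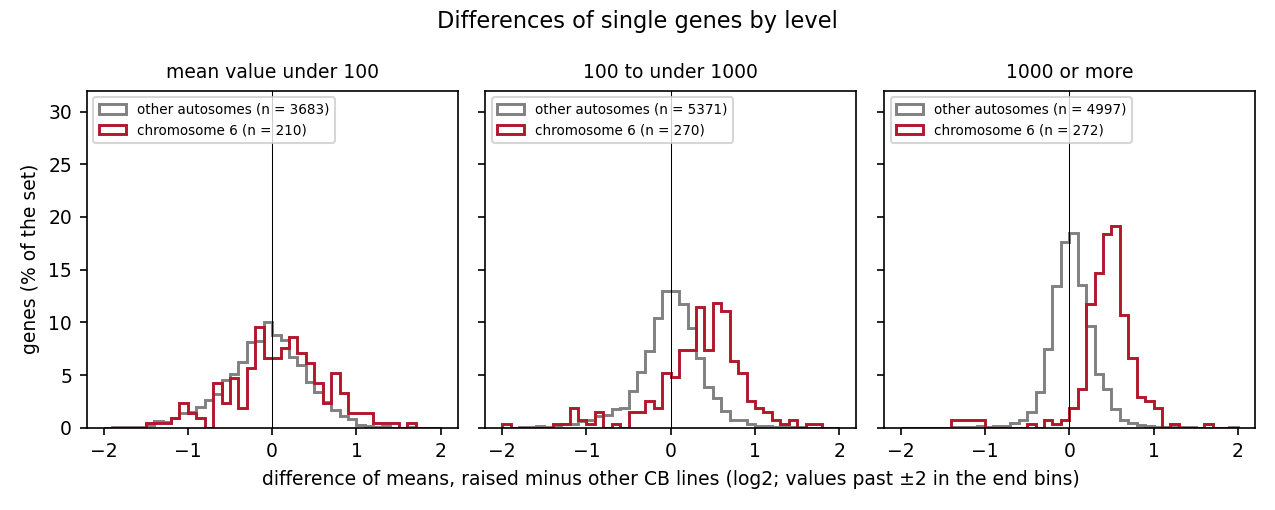
Histograms of the log2 difference of means, raised minus other CB lines (x axis), as percent of the genes in each set (y axis), for chromosome 6 (red) and the other autosomes (grey), in 3 classes of mean value. The chromosome 6 distribution lies to the right of the other autosomes, with medians of 0.11, 0.42 and 0.47 from the lowest class to the highest.

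The 10 chromosome 6 genes of highest value held 9 whose sides did not overlap. Over all chromosome 6 genes of 1000 or more, 66.5% had all raised lines above all others. Since chromosome 6 levels chose the lines, nothing particular to these 10 genes is read from the count. Serbp1, an mRNA-binding protein gene (chr6:67216973-67239296), had values of 50786, 46035 and 52642 in CB XY 2, CB XY 3 and CB XX 1, against 31663, 38719 and 35724 in CB XY 1, CB XX 2 and CB XX 3, a 1.42-fold difference. The lowest raised line lay above the highest of the others. Fkbp4, an HSP90 co-chaperone gene (chr6:128379753-128388695), had 32896, 29198 and 34947 in the raised lines against 26616, 20433 and 17634, or 1.52-fold. Cct7, a subunit gene of the CCT chaperonin (chr6:85401499-85418471), had 27238, 25646 and 30345 against 21258, 22348 and 22539, or 1.26-fold. The ribosomal protein gene Rpl32 was the exception, with 24057, 25820 and 32900 against 25570, 21706 and 23579, so that its sides overlapped. The other members were Slc2a3, Hnrnpf, Gapdh, Hnrnpa2b1, Trh and Cnbp, with log2 differences from 0.29 (Hnrnpf, an RNA-binding protein gene) to 0.84 (Trh, the gene for thyrotropin-releasing hormone).

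Genes of 5 roles on chromosome 6 were taken as lists, and of their 51 members passing the filter 48 had higher means in the raised lines and 28 did not overlap. Over all chromosome 6 genes these shares were 79.7% and 40.3%, and over those of 1000 or more 94.9% and 66.5%, so nothing particular to the lists is read from their counts. In the list of pluripotency and early germ line genes, 8 of 8 lay above 0 (median 0.64), and 2 did not overlap. Nanog, a core factor of the ES cell state (chr6:122657507-122664651), had 9689, 7674 and 12130 in the raised lines against 5909, 9396 and 6743, a log2 difference of 0.43. CB XX 2 lay above CB XY 3, so the sides overlapped. Slc2a3, a neuronal-type glucose transporter gene beside Nanog (chr6:122677827-122751658), had 69204, 43352 and 45166 against 25240, 30601 and 35810, a difference of 0.77 with no overlap. Tead4, a factor of the trophoblast programme (chr6:128174306-128250841), had 1926, 1240 and 1348 against 814, 784 and 655, a difference of 0.98 with no overlap. Dppa3 and Gdf3, both from the Nanog cluster, had differences of 0.59 and 0.29 and overlapped. Trim24, a p53 ubiquitin ligase gene, stood at 0.056, with all 6 CB lines between 4314 and 5298.

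**Figure D4:**
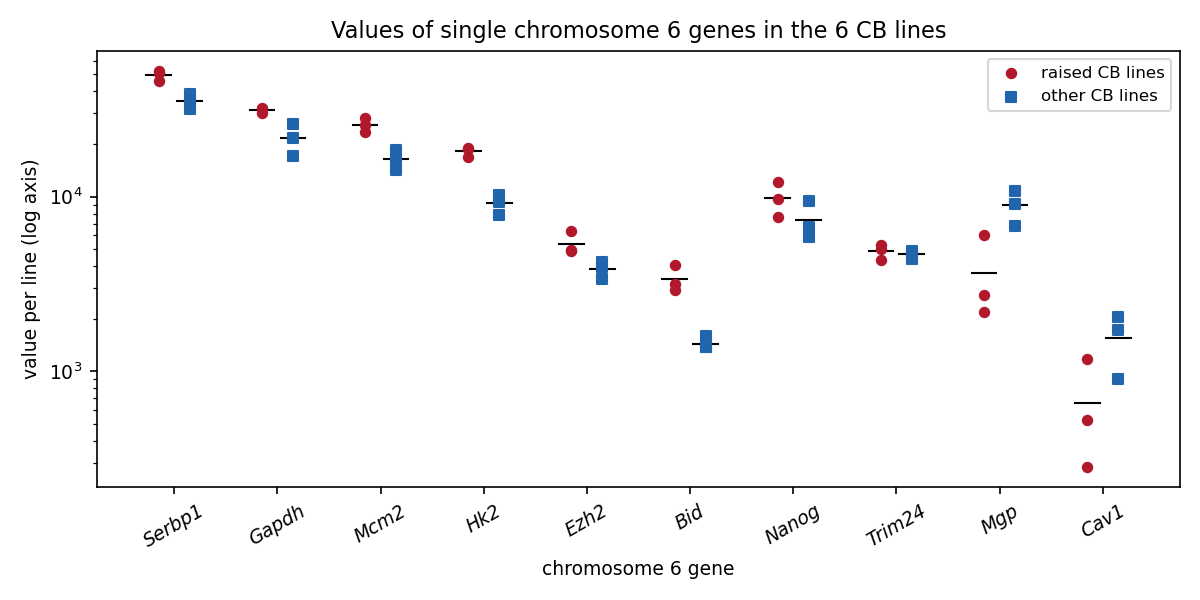
Values of 10 chromosome 6 genes (x axis) in the 3 raised CB lines (red circles) and the 3 other CB lines (blue squares) on a log axis, with the mean of each side as a black bar. Serbp1, Gapdh, Mcm2, Hk2, Ezh2 and Bid have every raised line above every other CB line, Nanog and Trim24 overlap, and Mgp and Cav1 have the lower mean in the raised lines.

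Chromatin regulator genes on chromosome 6 gave 14 of 14 above 0 (median 0.53), and 10 did not overlap. Ezh2, the H3K27 methyltransferase of PRC2 (chr6:47480273-47545340), had 6359, 4864 and 4935 in the raised lines against 3393, 3937 and 4239, a difference of 0.48. All raised lines lay above the others. Phc1, a PRC1 subunit gene, had 13668, 8991 and 7331 against 7054, 3637 and 4617, a difference of 0.98 and the largest of the list. Kdm5a, an H3K4 demethylase gene, and Mbd4, a DNA glycosylase gene for methylated CpG sites, had differences of 0.52 and 0.72 with no overlap. Tet3, a 5-methylcytosine dioxygenase gene, had values of 609 to 900 in the raised lines against 438 to 564 in the other CB lines. Chd4, the NuRD remodeller, had the smallest difference, 0.21, and overlapped.

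Genes of replication, repair and the cell cycle gave 8 of 9 above 0 (median 0.53), and 7 did not overlap. Mcm2 (chr6:88833469-88848774) had 25673, 23286 and 28304 in the raised lines against 18596, 16498 and 14289, a difference of 0.66. Foxm1, a factor of mitotic genes, had 2854, 2557 and 2486 against 1971, 1289 and 1216, a difference of 0.85. The repair genes Rad18, Rad52 and Rad51ap1 had differences of 0.42, 0.82 and 0.45, each with no overlap. Ccnd2, the cyclin D2 gene, was the exception at -1.09, with 833, 2522 and 891 against 2316, 2170 and 3655. CB XY 3 lay among the other CB lines for this gene.

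Signalling genes gave 10 of 12 above 0 (median 0.42), and 3 did not overlap. Vhl, a substrate adaptor gene for hypoxia-inducible factors, had 1061, 910 and 975 in the raised lines against 707, 805 and 828, a difference of 0.34. Bhlhe40, a basic helix-loop-helix repressor gene, had 5332, 3312 and 3936 against 2222, 1612 and 2259, a difference of 1.04. Braf, a serine/threonine kinase gene, overlapped at a difference of 0.56. The 2 members below 0 were Cav1 and Cav2.

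Metabolic genes gave 9 of 9 above 0 (median 0.46), and 7 did not overlap. Gapdh (chr6:125111871-125116485) had 32083, 30116 and 31611 in the raised lines against 25872, 17103 and 21559, a difference of 0.57. Ldhb, a lactate dehydrogenase gene, had 13616, 6506 and 6167 against 4558, 959 and 3975, a difference of 1.66. The other CB lines varied widely for Ldhb, and CB XX 2 was the lowest. Suclg1, a subunit gene of succinate-CoA ligase, had 3063, 3010 and 2969 against 2304, 2525 and 2281, a difference of 0.35. Akr1b3, the gene for aldose reductase, was left out because it was listed at 0 in all 3 raised lines and in CB XX 3, against 99.3 in CB XY 1 and 76.5 in CB XX 2.

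The largest differences on chromosome 6, among genes with a mean value of 100 or more, lay well above the typical shift. Klf15, a Kruppel-like factor gene (chr6:90412570-90425232), had 410, 391 and 568.5 in the raised lines against 129, 173 and 105, or 3.31-fold. All raised lines lay above 137, the highest of the BC lines. A2m, the gene for alpha-2-macroglobulin, had 695, 401 and 1059 against 92.9, 328 and 273, or 3.23-fold. Bid, a BH3-only cell death gene (chr6:120841948-120866871), had 4040, 3149 and 2927 against 1583, 1374 and 1369, or 2.32-fold, and its raised lines lay above the highest BC line at 1870. Foxi3 and Epha1 were among the 10 largest with overlapping sides, and Ldhb, Gstk1, H1fx, Aldh1l1 and Frmd4b were the others, at 1.17 to 1.66 on the log2 scale.

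The smallest differences belonged to a small set of genes with lower means in the raised lines. Mgp, the gene for matrix Gla protein (chr6:136820957-136824326), had 2183, 5999 and 2748 in the raised lines against 6792, 9094 and 10822, a difference of -1.40 with no overlap. Cav1 had 282, 1172 and 529 against 901, 1714 and 2058, and Col1a2, a collagen gene, had 705, 2905 and 1008 against 2609, 3073 and 2879. For Mgp, Cav1 and Col1a2 CB XY 3 was the highest of the raised lines, and it also had the highest summed feeder markers of the raised lines, 106639, whose part in these values was not tested. Tmem176b, Emp1, Samd9l, Cped1 and Pon2 had differences from -1.37 to -1.15. The pseudogene Atp6v0c-ps2 had 1.04, 0.349 and 227 in the raised lines against 0.153, 751 and 2851, and reads of such a copy can be shared with its parent gene.

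Of 12 imprinted and neighbouring genes on chromosome 6 that passed the filter, 7 lay above 0, with a median of 0.11. Chromosome 6 genes with a mean value under 100 had the same median, 0.11, with 57.6% above 0, and several members of the list had such low values. Peg10, a retrotransposon-derived paternally expressed gene (chr6:4697306-4710514), had 16797, 13229 and 24974 in the raised lines against 10902, 11068 and 11868, a difference of 0.66 with no overlap. Mest, another paternally expressed gene (chr6:30673547-30698457), had 192 in CB XY 2 against 2649 and 2152 in the other raised lines and 1922 to 2765 in the other CB lines. The low value thus belonged to CB XY 2 alone among the 6. Copg2, which lies next to Mest on the other strand, had 3691, 2725 and 3716 against 2056, 2264 and 2733, and its value in CB XY 2 was among the higher ones. Overlapping transcripts of Mest and Copg2 can share reads unless the counting uses strand, and whether it did is not given in the sources used here. Nap1l5 had 31.9, 42.8 and 44.1 against 12.1, 25.6 and 18.7, with no overlap. Pon2, which lies in the Peg10 domain, had 44.2, 88.3 and 52.6 against 105, 155 and 161.

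The Hoxa cluster lay the other way at low values. Of 12 genes on the list, 8 passed the filter, and 0 of these 8 lay above 0 (median -0.63), with all 8 overlapping. Hoxa5 had 7.37, 31.1 and 9.95 in the raised lines against 26.2, 43.9 and 34.7. Hoxa10 had 7.37, 48.0 and 32.7 against 28.3, 62.1 and 37.3. CB XY 2 was the lowest of the 6 lines for both. Its summed feeder markers were 74750, against 73695 in CB XX 1. By the mean log2 level of these markers it was the lowest of the 6 lines, at 9.01 against 9.39 in CB XX 1. The part of feeder RNA in the Hoxa values was not tested.

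Protein complexes with subunits on chromosome 6 and elsewhere allow both to be read in the same lines. In 7 complexes, 11 of 11 chromosome 6 subunit genes had higher means in the raised lines (median 0.46, from 0.21 to 0.98), and 8 did not overlap. Over all chromosome 6 genes these shares were 79.7% and 40.3%, and over those of 1000 or more 94.9% and 66.5%. Since chromosome 6 levels chose the lines, nothing particular to the complexes is read from the counts of these 11 genes. Of 54 partner subunit genes off chromosome 6, 23 lay above 0 and 31 below (median -0.045), and 0 had all raised lines above and 3 all raised lines below the others, where the background off chromosome 6 was 4.2% above and 4.97% below. The 46 partners off chromosomes 1, 6, 8 and X had a median of -0.051. In the CCT chaperonin Cct7 stood at 0.33, while 7 of 7 partners lay below 0, from -0.22 (Cct4) to -0.068 (Cct5). In the MCM helicase Mcm2 stood at 0.66, against a median of 0.12 over 5 partners. Mcm5, on chromosome 8, had 11971, 12098 and 15571 in the raised lines against 18101, 12747 and 17082. In PRC2, Ezh2 and Aebp2, an accessory subunit gene, stood at 0.48 and 0.46 against a median of -0.046 over 7 partners, with the partner Eed at 0.12. In condensin Ncapd2 stood at 0.53 against partners from -0.087 to 0.13, and in the COPI vesicle coat Copg1 and Copg2 stood at 0.46 and 0.52 against partners from -0.20 to 0.11. In PRC1 the partners spread more widely, from -1.07 (Cbx8, at low values) to 0.59 (Pcgf2).

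**Figure D5:**
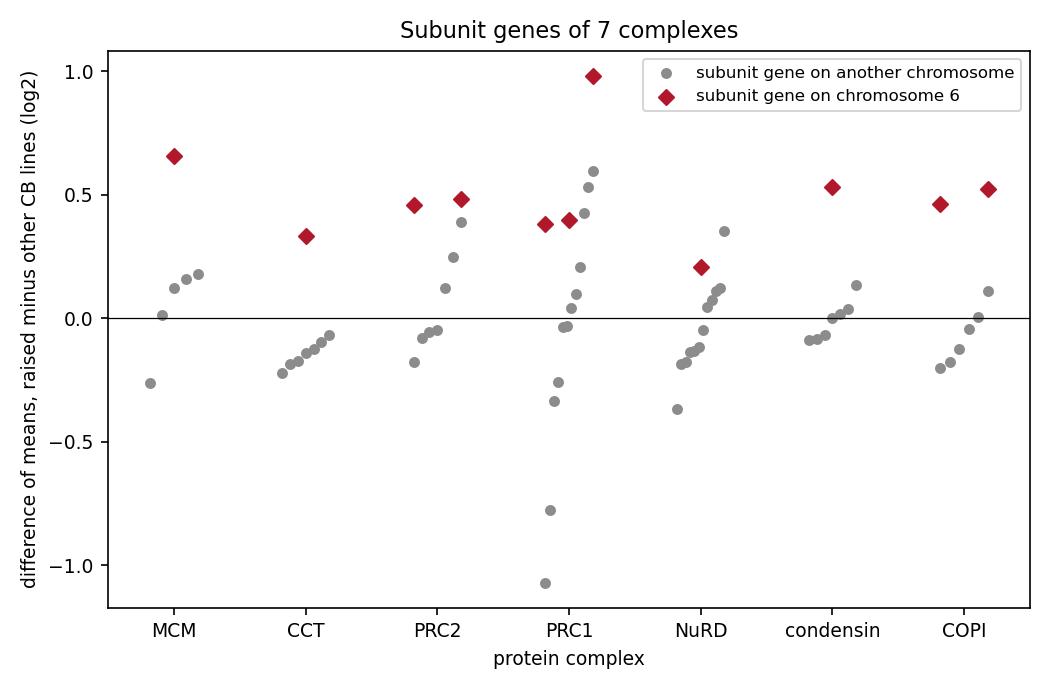
Each point is a subunit gene of a protein complex (x axis), placed by its log2 difference of means between the raised and the other CB lines (y axis), with red diamonds for the 11 genes on chromosome 6 and grey circles for partners elsewhere. All diamonds lie above 0, from 0.21 to 0.98, while the partners lie on both sides of 0.

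Glycolysis gave a further reading of this kind. The 6 genes of the glycolysis list on chromosome 6 had a median difference of 0.67 and 5 did not overlap, and the 14 elsewhere had a median of 0.11 with 2 that did not overlap, where the shares with raised lines above were 40.3% on chromosome 6 and 4.2% off it. Hk2, a hexokinase gene for the first step, had 18919, 16861 and 18839 in the raised lines against 9355, 10234 and 7804, a difference of 1.01 on chromosome 6. Off chromosome 6, Gpi1 and Slc2a1, a glucose-6-phosphate isomerase gene and a glucose transporter gene, had raised lines above the others at 0.39 and 0.54. Pkm and Aldoa overlapped at 0.19 and 0.048. For Slc2a1 the adjusted p was 0.617 (limma, Benjamini-Hochberg), so it did not pass.

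Genes off chromosome 6 were not used to choose the lines and were tested with limma on log2 values with the labelled sex in the model. None passed: 0 of 14637 genes had an adjusted p (Benjamini-Hochberg) under 0.05, a share of 0%. At an unadjusted p under 0.05 there were 861 genes (5.88%), 307 of them higher in the raised lines, and the lowest adjusted p was 0.478. Without both XY-labelled lines with low Y-linked RNA the count was 0, but CB XX 1 is then the only raised line and is assumed to vary like the others. Without CB XX 1 it was 2. These were Amd1, a polyamine synthesis gene, and Rpl34, a ribosomal protein gene. Amd1 had 1.62 and 1.79 in CB XY 2 and CB XY 3 against 970 in CB XY 1. In CB XX 1, CB XX 2 and CB XX 3 it had 661, 1026 and 1527. Rpl34 had 10902 and 12018 against 1351, with 12641, 14265 and 15112 in the CB XX lines. The low Rpl34 value thus belonged to CB XY 1 alone among the 6 CB lines. With labelled sex in the model, both differences then rest on CB XY 2 and CB XY 3 against CB XY 1. Both genes are named because the count was small, and both have near-identical copies in the genome whose reads the counting can split.

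The genes off chromosome 6 with the lowest p and no overlap are given as values. Stard8, a GTPase-activating protein gene on the X chromosome, had 2579, 2150 and 3155 in the raised lines against 1282, 1267 and 1528, a fitted log2 fold change of 1.03 (SE 0.18, adjusted p = 0.617 by limma). Ppfia4, a liprin gene on chromosome 1, had 943, 582 and 616 against 234, 285 and 287. Spn, the gene for the sialoglycoprotein CD43, had 302, 350 and 249 against 113, 117 and 72.0. Fgf15, a fibroblast growth factor gene on chromosome 7, had 44.2, 42.8 and 14.2 in the raised lines against 170, 105 and 96.9, a fitted log2 fold change of -2.15 (SE 0.31, adjusted p = 0.478 by limma). Ston2 and 1600029D21Rik were the other higher genes, and Zfp951, Ddx3y and 2610005L07Rik were further lower genes. Ddx3y carries the Y-linked difference described above.

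Pathway lists off chromosome 6 held no gene past the test. Of 14 naive pluripotency genes, 11 lay above 0 (median 0.33) and 3 did not overlap, where the background off chromosome 6 was 4.2% above. Klf4, a Kruppel-like factor of the naive state, had 6162, 5995 and 6662 in the raised lines against 4033, 5949 and 3277, an adjusted p of 0.623 by limma. Nr0b1, an X-linked orphan receptor gene, had 5725, 4199 and 5798 against 3252, 3755 and 3269, an adjusted p of 0.617 by limma. Klf5 was the third at a difference of 0.49, while Pou5f1 and Zfp42 stood at -0.047 and -0.23. The 17 p53 targets had a median of -0.0078, with 8 above 0, and the 10 heat shock genes a median of -0.066, with 3 above 0. Bag3, an HSP70 co-chaperone gene, had 224, 375 and 185 in the raised lines against 543, 395 and 377, an adjusted p of 0.617 by limma.

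Other chromosomes also differed between the 6 CB lines. Chromosome 8 had medians of 0.40 in CB XY 1 and 0.36 in CB XX 3, against 0.089 to 0.12 in the 3 raised lines and CB XX 2. Of 802 chromosome 8 genes, 124 (15.5%) had all raised lines below all other CB lines, where the background off chromosome 6 was 4.97%, so that lower values of the raised lines on chromosome 8 come with higher values in 2 of the lines they are compared with. Chromosome 1 had a median of 0.30 in CB XX 1 alone, against -0.14 and -0.091 in the other raised lines. CB XX 2 had medians of -0.35 on chromosome 12, -0.22 on chromosome 10 and -0.19 on chromosomes 17 and 19. The X chromosome stood at -0.49 in CB XY 2, -0.15 in CB XY 3 and 0.33 in CB XX 1, against -0.47 in CB XY 1 and 0.41 and 0.50 in CB XX 2 and CB XX 3. Over autosomes other than 1, 6 and 8 the median gene difference between the sides was 0.012, with 4.29% of 12363 genes above and 4.46% below without overlap.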

How the data were processed

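Strand-specific total RNA-seq (ribosomal RNA depleted) was made from 14 ES cell lines. Per the labels and the study's methods, the authors aligned reads with TopHat2 to mm9 and deposited a scaled read signal per gene, with Cuffdiff also named in the submitters' processing notes. In each library 96.2% to 98.2% of values were whole multiples of a step (tolerance 0.05), but whole reads could not be recovered for all genes, so tests for read counts were not run. Genes were placed by symbol on mm9 (NCBIM37), with 21983 of 23298 given coordinates. Genes with a value of 10 or more in 3 of the 6 CB lines were kept (15389), leaving out 16 listed at 0 in a line and at 100 or more elsewhere. Levels were log2(value + 5), a scale that understates differences of low genes. Genes off chromosome 6 were tested with limma 3.58.1 (R 4.3.3, trended variance) on the 6 CB lines with the labelled sex in the model and Benjamini-Hochberg adjustment over all kept genes. The procedure was tested on simulated data. Named genes were members of the gene lists, the 10 of highest value, of largest and of smallest difference on chromosome 6, and the 5 in each direction off it with the lowest p and no overlap. The lines, lists and rules were chosen with earlier results of these data known. Other pseudocounts, filters, scalings, references, models and left-out lines were tried. Some genes that the lists or rules pick are not reported here.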

Additional observations from a re-analysis of the deposited data

Results flagged for a closer look

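In each cross the lowest and highest line of every chromosome's median were examined. A combination of chromosome and cross stood out if the gap to the next line was wide against the range of that cross. Of 40 combinations 12 stood out, where about 5% were expected by chance if they were independent. They are not, since the same lines enter every chromosome and 6 of the 12 came from BC XX 3. No excess over chance is read from the count. Among the CB lines, the line CB XX 1 stood apart on chromosome 1 (0.30), CB XX 2 on chromosome 10 (-0.22) and chromosome 12 (-0.35), and CB XX 3 on chromosome 11 (-0.018). Chromosome 6 was not among them in the CB lines, since 3 of 6 lay high together. Among the BC lines, BC XX 2 stood apart on chromosome 6 (0.25), where it lay near the 3 raised CB lines. BC XX 1 stood apart on chromosome 10 (-0.14). BC XX 3 stood apart on chromosome 3 (0.15), 7 (-0.23), 8 (-0.14), 13 (0.18), 16 (0.12) and 17 (-0.23), and it also had the highest summed feeder markers of the 14 lines, 583081. The part of feeder RNA in the values of BC XX 3 was not tested. With a correction for GC content BC XX 3 stood at 0.0015, -0.070, -0.047, -0.045, 0.0018 and -0.092 on these 6 chromosomes. The same correction left CB XX 1 at 0.41 on chromosome 1 and CB XX 2 at -0.24 and -0.29 on chromosomes 10 and 12. It left CB XX 3 at -0.035 on chromosome 11, BC XX 2 at 0.22 on chromosome 6 and BC XX 1 at -0.14 on chromosome 10.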

How the results depend on the processing

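Chromosome 6 medians chose the lines, so the direction of their difference was largely set in advance and is no support. The chromosome 6 difference between the sides (0.37) stayed above 0 under every alternative. It moved by more than the spread between lines when genes with 50 or more in 3 lines (0.42) or with any value above 0 (0.29) were taken, when the mean over genes replaced the median (0.30), and, among alternatives chosen after seeing the data, with a correction for GC content (0.42), within the CB XX lines (0.32), within the lines labelled CB XY (0.45) and over genes with a mean value of 100 or more (0.44). Leaving out each line in turn gave 0.34 to 0.39. The count of genes off chromosome 6 past the threshold was 0 under each other alternative, with a range of 0 to 2 when each line was left out, the 2 genes appearing without CB XX 1. All 160 values of the named genes off chromosome 6 under the alternatives kept their direction, and 0 passed the threshold. The named genes were picked in these same lines for a low p and no overlap. Their kept direction was thus largely set in advance and is no support. Tests for read counts were listed and not run. No paired analysis was possible because the column numbers of the CB XX lines do not match their sample names and the 2 sides are not labelled groups. Low genes limit the description, since 1 read is worth 0.889 to 2.46 units in the CB lines.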
